A study of Mus musculus with 16 samples.

Results

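Kcna1, the gene deleted in the mice of this study, belongs to a family of voltage-gated potassium channels called Kv1. The 10 genes described here were taken by name from a hippocampal RNA sequencing table of 49315 mouse genes. They are the Kv1 alpha subunit genes Kcna1, Kcna2, Kcna3, Kcna4, Kcna5 and Kcna6, the Kv beta subunit genes Kcnab1, Kcnab2 and Kcnab3, and Lgi1. All 10 passed the filter on low counts, which left 17469 genes for testing. The question was whether any of the other 9 genes differed in a direction that would offset the lost Kcna1.

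Kv1 channels are built from 4 alpha subunits that form the pore, alike or mixed, with beta subunits attached on the inner side of the membrane. In the brain they sit mainly in axons and nerve terminals, where they open at small depolarizations and restrain repetitive firing and transmitter release. Beta subunits help the alpha subunits reach the axon, and one of them can make the current inactivate quickly. Lgi1 is a protein secreted by neurons that binds the receptors Adam22 and Adam23 at synapses and is found with Kv1 channels there. Loss of KCNA1 or LGI1 function can cause epilepsy or episodic ataxia in people, and mice without Kcna1 have spontaneous seizures.

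Each of the 16 libraries came from the hippocampus of 1 mouse, and there were 4 libraries in each of 4 groups. The groups were wild-type mice on a standard diet, Kcna1 knockout mice on the standard diet, wild-type mice on a ketogenic diet and Kcna1 knockout mice on the ketogenic diet. A ketogenic diet is rich in fat and poor in carbohydrate. The labels gave neither the allele, the deleted part of Kcna1, the background strain, the age and sex of the mice, nor the composition and length of the diets. The tissue field read brain, and the hippocampus was named in the descriptions. Libraries are named here by the animal tags of the count columns.

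Total counts ran from 13440230 to 22309504 per library. Levels are in CPM, counts scaled by the effective size of each library, and a gene is called when the adjusted p of edgeR's quasi-likelihood test was under 0.05. All 10 markers of hippocampal granule and pyramidal neurons were detected, with summed levels of 782.7 to 1391.2 CPM per library. The 14 oligodendrocyte markers summed to 4344.8 to 6753.7 CPM in wild-type mice on the standard diet, while knockouts on the ketogenic diet summed to 2097.1 to 3925.0 CPM. Choroid plexus markers ran from 28.9 to 1030.4 CPM over the libraries, thalamic markers from 89.7 to 184.5 CPM, astrocyte markers from 4082.9 to 6573.6 CPM and blood markers from 17.4 to 113.3 CPM. In bulk tissue, fewer cells of a type cannot be told apart from less RNA per cell.

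Kcna1 itself was examined first, since it checks the genotype labels. Under the standard diet it stood at 115.7, 118.0, 118.1 and 129.7 CPM in the wild-type libraries and at 44.6, 46.4, 47.0 and 82.0 CPM in the knockout libraries. With the ketogenic diet the wild-type libraries had 107.3, 113.8, 115.2 and 130.1 CPM and the knockout libraries 43.4, 43.5, 44.6 and 47.2 CPM. The groups did not overlap on either diet, and 1 library stood apart: KC888LL, labelled knockout on the standard diet, with 82.0 CPM. The other 7 libraries labelled knockout averaged 45.3 ± 1.6 CPM (SD, n = 7), which was 38.2% of the wild-type mean of 118.5 ± 7.80 CPM (SD, n = 8). The library labelled knockout with the tag KC888LL was at 69.2% of that mean and lay 50.2% of the way from the other knockout libraries to wild type. Its label was kept, and values without it are given beside the main results that it moves.

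Transcript of the targeted gene therefore remained countable in all libraries labelled knockout. Kcna1 (ENSMUSG00000047976) lies on the minus strand of chromosome 6 at 126640397 to 126646384 (GRCm38). Its GENCODE M21 model holds 4780 exon bases, of which 1485 (31.1%) are coding, in 1 uninterrupted block. A count summed over the whole gene does not tell which part of it was transcribed.

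**Figure D1:**
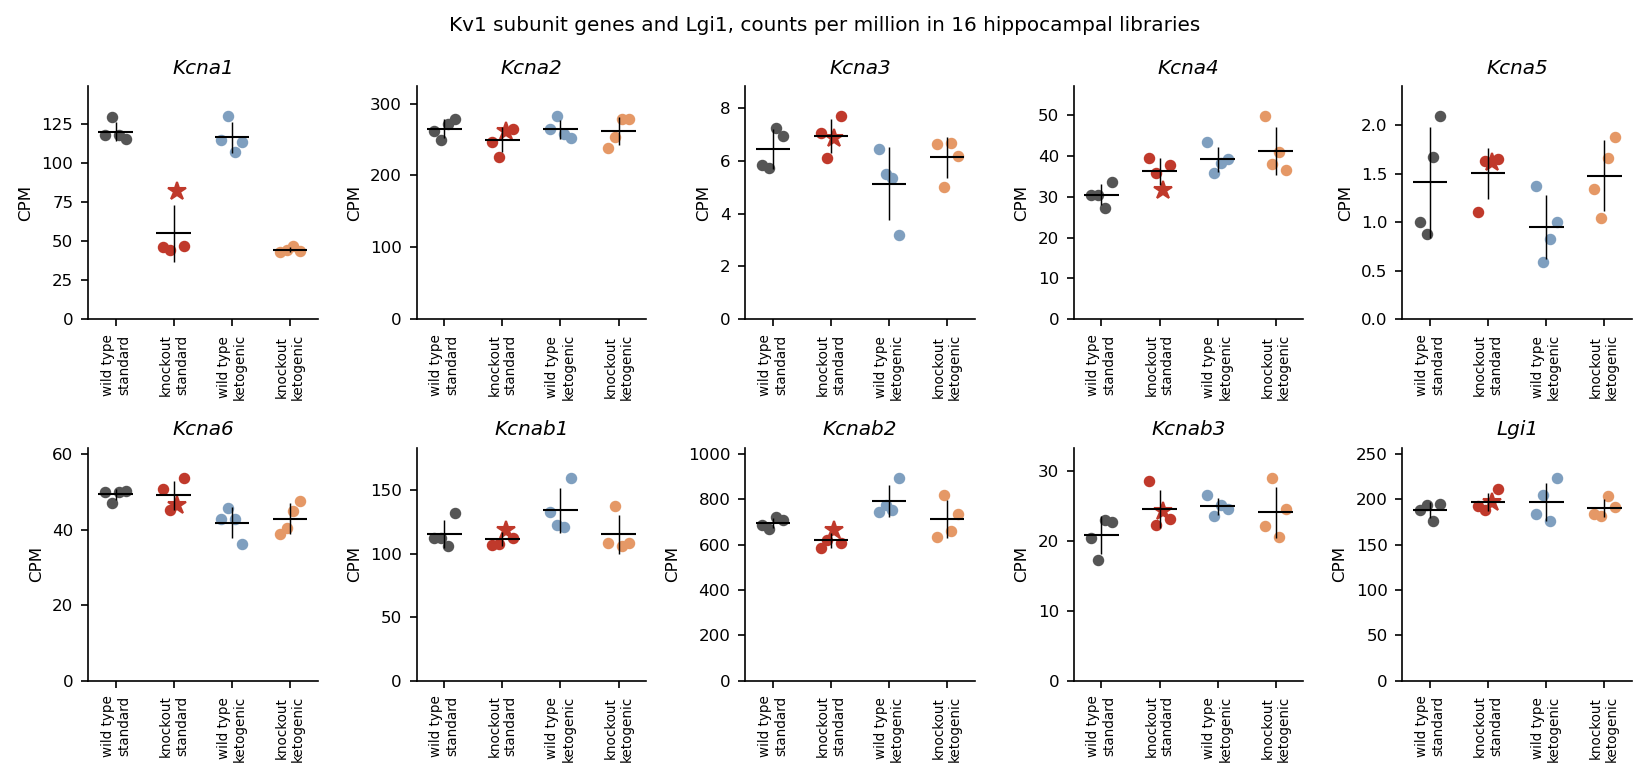
CPM of each of the 10 genes in every library (points, linear axes from 0) by group, with the group mean and SD as bars and KC888LL as a star. Kcna1 separates by genotype, with KC888LL at 82.0 CPM between the other knockout libraries and wild type, while the genotypes overlap for most other genes.

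Levels were set in order per kilobase of exon in the 8 wild-type libraries, the one scale on which genes can be compared here. Kcnab2 was highest by a wide margin, at 133.5 ± 12.6 CPM per kb (SD, n = 8). Kcna1 came next at 24.8 ± 1.63 CPM per kb, and its range overlapped that of Kcna2 at 22.2 ± 1.01 CPM per kb. Kcna1 and Kcna2 were thus the main Kv1 alpha transcripts in this tissue. Within each of the 8 wild-type libraries Kcna2 was below Kcna1 on this scale, with a ratio of 0.770 to 0.967 that depends on the annotated exon lengths.

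Lgi1 followed at 17 ± 1.39 CPM per kb, with a range overlapping that of Kcnab1 at 14.5 ± 1.98 CPM per kb. A group of 3 genes with overlapping ranges came after them: Kcnab3 at 8.0 ± 1.02, Kcna6 at 7.67 ± 0.826 and Kcna4 at 7.21 ± 1.11 CPM per kb. Kcna3 was lower, at 3.04 ± 0.655 CPM per kb. Kcna5, known best from heart and smooth muscle, was lowest at 0.412 ± 0.174 CPM per kb.

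Kcna1 fell in the knockout under both diets. Its log2 change was -1.13 ± 0.15 (SE) with the standard diet (adjusted p = 0.0339 in edgeR) and -1.38 ± 0.15 with the ketogenic diet (adjusted p = 0.00320). Over both diets the change was -58.1% (adjusted p = 0.000111). Without KC888LL the standard-diet change was -1.39 on the log2 scale, and the adjusted p in edgeR went to 4.1e-10. That library was singled out by its Kcna1 level, so a larger change without it was fixed in advance and adds no support. The adjusted p of the standard-diet change lay close to the threshold. Of the 16 fits that each left out 1 library, from either genotype or diet, it held in the fit without KC888LL and was lost in the other 15, with an adjusted p of up to 0.220 (without KC872RL). In those 15 fits the log2 change stayed between -1.15 and -1.04, and the unadjusted p in edgeR was at most 1.25e-05. It was also lost when the 8 standard-diet libraries were fitted alone (adjusted p = 0.203). The ketogenic-diet call held in all 25 alternatives tried. Diet did not move Kcna1 past the threshold in wild type (log2 change -0.05 ± 0.15, adjusted p = 0.998) or in the knockout (-0.30 ± 0.15, adjusted p = 0.337). The knockout value rested on KC888LL, and without that library it was -0.04 ± 0.07 (adjusted p = 0.802).

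None of the other 9 genes was called in any genotype comparison. The share of all tested genes called was also very small: 0.00572% on the standard diet, 0.0172% with the ketogenic diet and 0.0973% over both, so a count of 0 among 9 says little, and the intervals are the more informative values. Leaving out KC888LL raised the share called to 5.73% on the standard diet and to 4.96% over both diets (0.0282% on the ketogenic diet), and the count among the 9 genes was still 0. The median log2 difference of the 9 genes was 0.07 on the standard diet, against 0.00 over all tested genes, and -0.01 against 0.00 on the ketogenic diet. At an unadjusted p under 0.05, 3 of the 9 differed on the standard diet and 1 on the ketogenic diet, where 14.3% and 9.22% of all tested genes did.

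**Figure D2:**
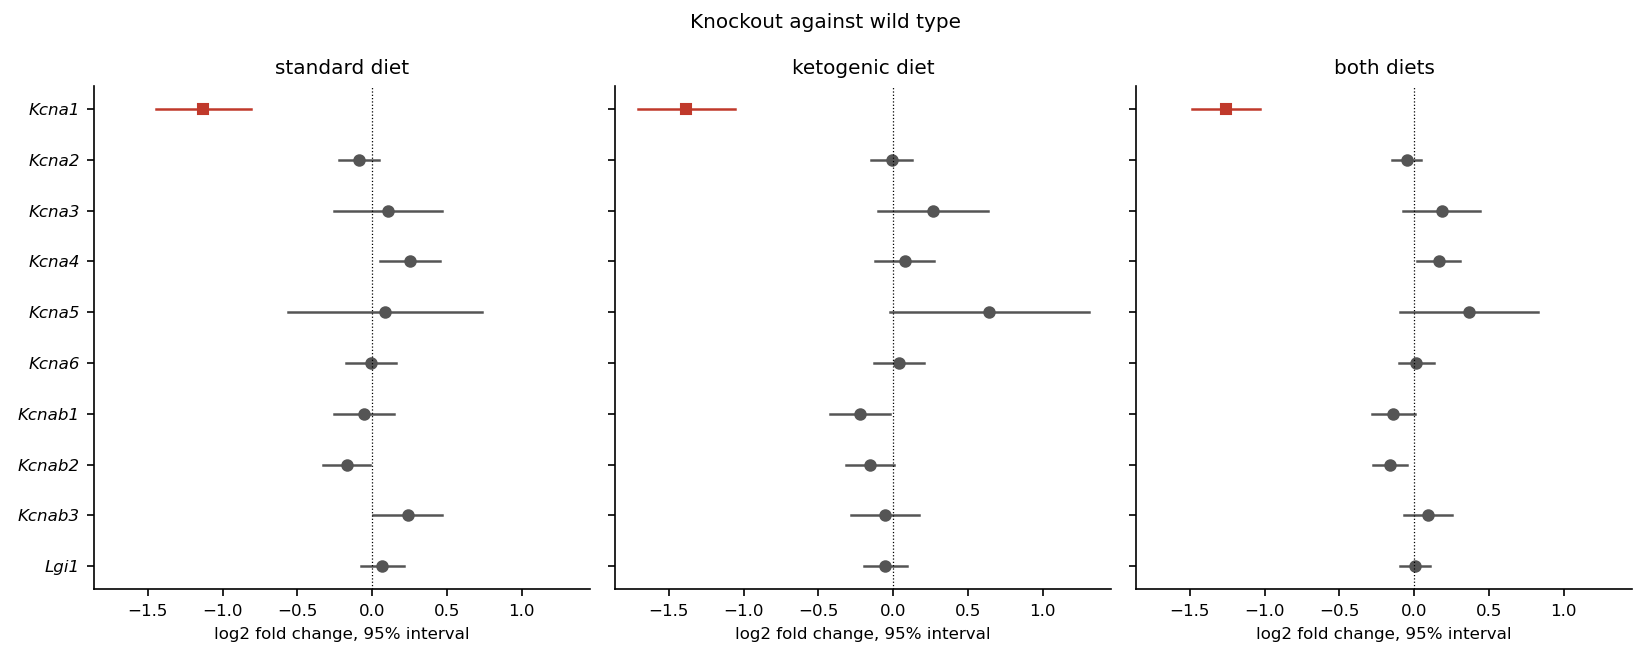
Log2 fold change of knockout against wild type for each of the 10 genes with the standard diet, with the ketogenic diet and over both, with 95% intervals (x axis, log2; squares in red have an edgeR adjusted p under 0.05). Kcna1 is the red square in each panel. Among the other 9 genes the intervals are narrow for Kcna2, Kcna6, Kcnab2 and Lgi1 and wide for Kcna5.

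Kcna2 encodes Kv1.2, the alpha subunit that most often shares a channel with the Kcna1 product in axons. It stood at 248.6, 261.9, 271.9 and 278.7 CPM in wild-type mice fed the standard diet, and at 226.3, 247.1, 261.5 and 264.2 CPM in knockouts fed the same. With the ketogenic diet the wild-type values were 252.5, 257.5, 264.1 and 282.1 CPM and the knockout values 238.7, 253.5, 278.0 and 278.1 CPM. The genotypes overlapped on both diets. Over both diets the difference was -3.32% (95% interval -9.52% to 3.30%, edgeR adjusted p = 0.643). On the ketogenic diet alone the interval was wider, from -9.61% to 9.01%.

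Kcna6 encodes Kv1.6, another alpha subunit of axons and dendrites. Under the standard diet wild-type levels were 47.2 CPM in KC894RLL, 50.2 CPM in KC900RLL and just under the latter in the other pair, next to 45.1, 46.6, 50.9 and 53.7 CPM for knockouts. Fed the ketogenic diet, wild-type mice had 36.1, 42.8, 42.8 and 45.8 CPM of Kcna6 and knockouts 38.7, 40.5, 44.9 and 47.6 CPM. The genotypes overlapped on both diets, and the difference over both diets was 1.08% (95% interval -6.86% to 9.70%, adjusted p = 0.926). Kcna6 lies 61.9 kb from Kcna1 on chromosome 6, at 126708329 to 126740674. Of its 50-base exon words 38.8% also occur in Gm26673, which overlaps it on the opposite strand and had 3 to 14 counts per library, against 541 to 1012 for Kcna6.

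Kcna4 encodes Kv1.4, the alpha subunit that inactivates by itself and gives a transient current in axons. Standard-diet wild-type libraries had 27.3, 30.4, 30.5 and 33.7 CPM and the knockout libraries 31.8, 35.9, 37.8 and 39.5 CPM. Ketogenic-diet libraries had 35.8, 38.3, 39.3 and 43.4 CPM where wild type and 36.6, 38.1, 40.9 and 49.8 CPM where knockout. The standard-diet groups were separated except for KC888LL, the lowest knockout library at 31.8 CPM, and the ketogenic-diet groups overlapped. Kcna4 had the largest positive difference of the 9 genes on the standard diet, 0.25 ± 0.10 on the log2 scale (adjusted p = 0.259, and 0.0740 without KC888LL). Over both diets the difference was 12% (95% interval 1.58% to 23.5%), which missed the adjusted threshold (adjusted p = 0.247, and 0.105 without KC888LL).

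Kcna3 encodes Kv1.3, which is also a channel of T cells and microglia. Its levels were low, with 67 to 140 counts per library. With the standard diet the means were 6.43 ± 0.761 CPM for wild type and 6.93 ± 0.640 CPM for knockout, and with the ketogenic diet 5.13 ± 1.38 and 6.12 ± 0.776 CPM (SD, n = 4 each). The difference over both diets was 13.7% (95% interval -4.93% to 36.0%, adjusted p = 0.484), or 0.19 on the log2 scale. That value ranged from 0.09 (without KC846L) to 0.25 (without KC842L) when 1 library was left out. On the standard diet the log2 difference of Kcna3 was 0.11, and 0.25 with Xist as a covariate (adjusted p = 0.659). The 12 microglial markers summed to 681 CPM in KC872RL and 683 CPM in KC873RR, against 281.5 to 344.5 CPM in the other 14 libraries. Kcna3 was at 7.04 and 6.12 CPM in this pair, and at 6.87 and 7.68 CPM in the other knockout libraries fed that diet. Of the 5 T cell markers Cd3d was at 0 in all libraries, and the list summed to 0.294 to 1.08 CPM per library.

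Kcna5 encodes Kv1.5 and was close to the limit of detection, with 11 to 32 counts per library. Wild type and knockout averaged 1.41 ± 0.572 and 1.503 ± 0.264 CPM with the standard diet, and 0.948 ± 0.328 and 1.48 ± 0.365 CPM with the ketogenic diet (SD, n = 4 each). The interval over both diets ran from -6.53% to 77.7% (adjusted p = 0.436), so that only a large change could have been seen. Mural and endothelial markers summed to 182.1 to 229.6 CPM in the wild-type libraries and to 208.4 to 261.2 CPM in the knockout libraries, and their part in the Kcna5 values was not tested. Kcna5 also lies near the deleted gene, 105.0 kb from Kcna1 at 126532551 to 126535412 on chromosome 6. Of the exon words of Kcna5, of the length used for Kcna6 above, 2.81% also occur in Kcna6 on the same strand. Kcna6 had 541 to 1012 counts per library. How reads from the shared words were assigned is not given in the sources used here. Their part in the Kcna5 counts was not tested.

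The alpha subunits were then summed per kilobase of exon. The sum over Kcna1 to Kcna6 was 65.9 ± 1.08 CPM per kb for wild type and 52.4 ± 4.41 CPM per kb for knockout with the standard diet. Under the ketogenic diet these sums were 64.8 ± 3.65 and 50.9 ± 2.22 CPM per kb (SD, n = 4 each). With Kcna1 left out of the sum, the group means lay close together: 40.8 ± 2.00 and 40.9 ± 2.43 CPM per kb on the standard diet and 40.4 ± 2.22 and 41.5 ± 2.04 CPM per kb on the ketogenic diet. Under the standard diet Kcna1 differed by -13.7 CPM per kb between knockout and wild type, and the summed other 5 by 0.145 CPM per kb. With the ketogenic diet Kcna1 differed by -15.0 CPM per kb and the other 5 by 1.17 CPM per kb. Both differences of the other 5 were smaller than the SD of any group. Without KC888LL the standard-diet knockout sum was 50.6 ± 3.22 CPM per kb (SD, n = 3), Kcna1 differed by -15.6 CPM per kb and the other 5 by 0.258 CPM per kb. These sums are descriptions and were not tested.

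Kcna1 made up 38.2% and 37.7% of the sum in wild type on the standard and the ketogenic diet. In the knockout its share was 21.7% and 18.4%, and KC888LL had the highest share of the knockout libraries, 29.7%. Kcna2 went from 33.8% and 34.3% of the sum in wild type to 40.1% and 43.2% in the knockout. The ratio of Kcna2 to Kcna1 was 0.888 and 0.911 in wild type and 1.93 and 2.35 in the knockout, with no called change of Kcna2. Without KC888LL the standard-diet knockout values were 19% for the Kcna1 share, 40.8% for the Kcna2 share and 2.14 for the ratio.

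Kcnab2, the gene of the main beta subunit of brain Kv1 channels, was the one gene besides Kcna1 whose groups did not overlap in a genotype comparison. Wild-type mice fed the standard diet had 667.7, 688.6, 707.9 and 722.3 CPM, and their knockout counterparts had 587.1, 606.5, 619.4 and 663.1 CPM. Among all tested genes 5.86% had groups without overlap in that comparison. With the ketogenic diet wild-type libraries had 746.4, 755.6, 775.0 and 895.1 CPM and the knockout libraries 633.5, 660.4, 738.0 and 818.0 CPM, and the groups overlapped. The share of genes without overlap was 3.98% there and 0.109% over both diets, and Kcna1 was the single member among them.

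The difference of Kcnab2 was -0.17 ± 0.08 on the log2 scale on the standard diet (adjusted p = 0.317) and -0.15 ± 0.08 on the ketogenic diet (adjusted p = 0.551). Over both diets it was -10.7% (95% interval -17.3% to -3.42%, adjusted p = 0.166, and 0.0623 without KC888LL), lower and not higher in the knockout. Its interval left out 0, and it missed the adjusted threshold. With a library left out, the ketogenic-diet difference of Kcnab2 ran from -0.23 to -0.09 on the log2 scale. Summed pan-neuronal markers moved in the same direction on the standard diet, with 5524.1 to 5698.0 CPM for wild type and 4841.4 to 5437.0 CPM for knockout. The lowest of these were KC872RL and KC873RR, which also had the highest microglial and astrocyte sums. Hippocampal neuron markers summed to 970.1 to 1077.6 CPM for wild type with that diet, and to 782.7, 814.5 and 839.4 CPM for 3 knockouts. They reached 1074.9 CPM in KC888LL, the knockout library with the highest Kcnab2 there. Ketogenic-diet pan-neuronal sums overlapped, at 5395.0 to 5953.7 and 5320.6 to 5741.2 CPM. Hippocampal neuron sums overlapped there too, averaging 1148.6 CPM in wild-type mice and 1079.5 CPM in knockouts. Interneuron markers went the other way, averaging 867.5 CPM in wild-type mice and 970.4 CPM in knockouts with the standard diet, and 865.1 against 992.8 CPM with the ketogenic diet. The part of these lists in the Kcnab2 values was not tested.

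Kcnab1 encodes the beta subunit whose end can plug the pore and so make Kv1 currents inactivate. Standard-diet libraries of wild-type mice had 106.1, 112.3, 112.8 and 131.9 CPM, and those of knockouts 106.8, 107.9, 112.1 and 119.1 CPM. Ketogenic-diet libraries had 121.0, 123.0, 133.2 and 159.9 CPM for wild type, and for knockouts 106.4, 108.4, 108.5 and 137.8 CPM. In the last group KC916RRL stood above the other 3 libraries, and without it that group lay below wild type. The difference over both diets was -9.12% (95% interval -17.6% to 0.259%, adjusted p = 0.327).

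Kcnab3, the least abundant beta gene, showed no common direction. Its wild-type levels with the standard diet were 17.2, 20.5, 22.7 and 23.0 CPM, next to 22.3, 23.2, 24.3 and 28.5 CPM for knockouts. With the ketogenic diet, wild-type levels were 23.5, 24.6, 25.1 and 26.6 CPM, next to 20.6, 22.1, 24.6 and 29.0 CPM for knockouts. The log2 difference was 0.24 ± 0.11 on the standard diet (adjusted p = 0.333) and -0.05 ± 0.11 on the ketogenic diet (adjusted p = 0.904). The difference between these was not called (adjusted p = 0.707). Kcnab3 overlaps Kcnab3os on the opposite strand, and the use of strand in counting is not given in the sources used here.

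Lgi1 (chromosome 19, 38264536 to 38312214) was called in none of the comparisons. Wild-type libraries had 175.9, 188.3, 193.6 and 195.2 CPM with the standard diet, and knockout libraries had 188.6, 192.8, 196.6 and 210.9 CPM. The ketogenic-diet values were 176.4, 184.4, 204.8 and 223.7 CPM for wild type, then 181.9, 184.2, 191.6 and 203.3 CPM for knockouts. The groups overlapped on both diets. The difference over both diets was 0.508% (95% interval -6.32% to 7.84%, adjusted p = 0.960). Single comparisons were less precise, with intervals of -5.17% to 15.7% for genotype on the standard diet, -12.7% to 6.52% on the ketogenic diet and -5.10% to 15.8% for diet in wild type. Of its 50-base exon words 12.9% also occur in other genes. Most of these (9.89% of its words) lie in a gene that was not among those counted. A further 2.96% lie in Gm42723, which overlaps Lgi1 on the opposite strand and had 22 to 54 counts per library. How such reads were assigned is not given in the sources used here and could touch the level of Lgi1.

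Diet was compared within each genotype. In wild type, 4 of the 10 genes had groups without overlap between the diets, Kcna4, Kcna6, Kcnab2 and Kcnab3, where 4.88% of all tested genes did. None of the 10 was called, and 0.0114% of all tested genes were. At an unadjusted p under 0.05, 5 of the 9 genes other than Kcna1 differed, 4 higher and 1 lower on the ketogenic diet, where 5.46% of all tested genes did. These 5 share the same 8 libraries and are not independent of one another.

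Kcna4 was higher in each wild-type library on the ketogenic diet, 35.8 to 43.4 CPM, than in any on the standard diet, 27.3 to 33.7 CPM. Its log2 difference was 0.36 ± 0.10 (edgeR adjusted p = 0.704). Kcna6 went the other way, with 36.1 to 45.8 CPM on the ketogenic diet below 47.2 to 50.2 CPM on the standard diet, a log2 difference of -0.24 ± 0.08 (adjusted p = 0.773). Oligodendrocyte markers were also lower on the ketogenic diet, summing to 3595.8 to 4571.1 CPM in wild type against 4344.8 to 6753.7 CPM. Their part in the Kcna6 values was not tested.

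All 3 beta genes had higher means on the ketogenic diet in wild type. The log2 difference was 0.19 ± 0.08 for Kcnab2 (adjusted p = 0.839), 0.21 ± 0.10 for Kcnab1 (adjusted p = 0.885) and 0.26 ± 0.11 for Kcnab3 (adjusted p = 0.857). KC846L, the most deeply sequenced library, had the highest Kcnab1, Kcnab2 and Lgi1 and the lowest Kcna3 and Kcna6 of its group, and also the highest sum of hippocampal neuron markers of all libraries, 1391.2 CPM. Without it the difference was 0.12 for Kcnab1 and 0.12 for Kcnab2, and it was 0.27 for Kcnab3. The part of neuron content in these values was not tested.

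Within the knockout, none of the 10 genes had groups without overlap between the diets, where 6.39% of all tested genes did, and none was called, where 1.16% were. Without KC888LL the shares called were 6.18% here and 0.0113% in wild type, again with none of the 9 genes other than Kcna1 among them. At an unadjusted p under 0.05, 2 of these 9 and 16.9% of all tested genes differed. Kcnab2 was higher by 0.20 ± 0.08 on the log2 scale on the ketogenic diet (adjusted p = 0.184) and Kcna6 was lower by a difference of -0.19 ± 0.08 (adjusted p = 0.230). Kcna4 differed by 0.19 ± 0.09 (adjusted p = 0.320). With a library left out, the difference ran from 0.09 to 0.24 for Kcna4 and from 0.13 to 0.25 for Kcnab2. Markers differed between these groups as well. Oligodendrocyte sums were 5396.0 to 5964.5 CPM with the standard diet and 2097.1 to 3925.0 CPM with the ketogenic diet, and hippocampal neuron sums 782.7 to 1074.9 and 989.8 to 1213.2 CPM. Their part in the Kcna6, Kcna4 and Kcnab2 values was not tested. Kcna2 and Lgi1 differed by 0.07 and -0.05 (adjusted p = 0.628 and 0.754).

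The interaction of genotype and diet was called for none of the 10 genes and for 0% of all tested genes in edgeR. At an unadjusted p under 0.05, 0 of the 10 and 7.48% of all tested genes passed. The interval of Kcnab3, the gene with the lowest p, ran from -0.62 to 0.03 on the log2 scale. That of Kcna5 ran from -0.37 to 1.48, so that the interaction could not be measured usefully for a gene with so few counts.

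**Figure D3:**
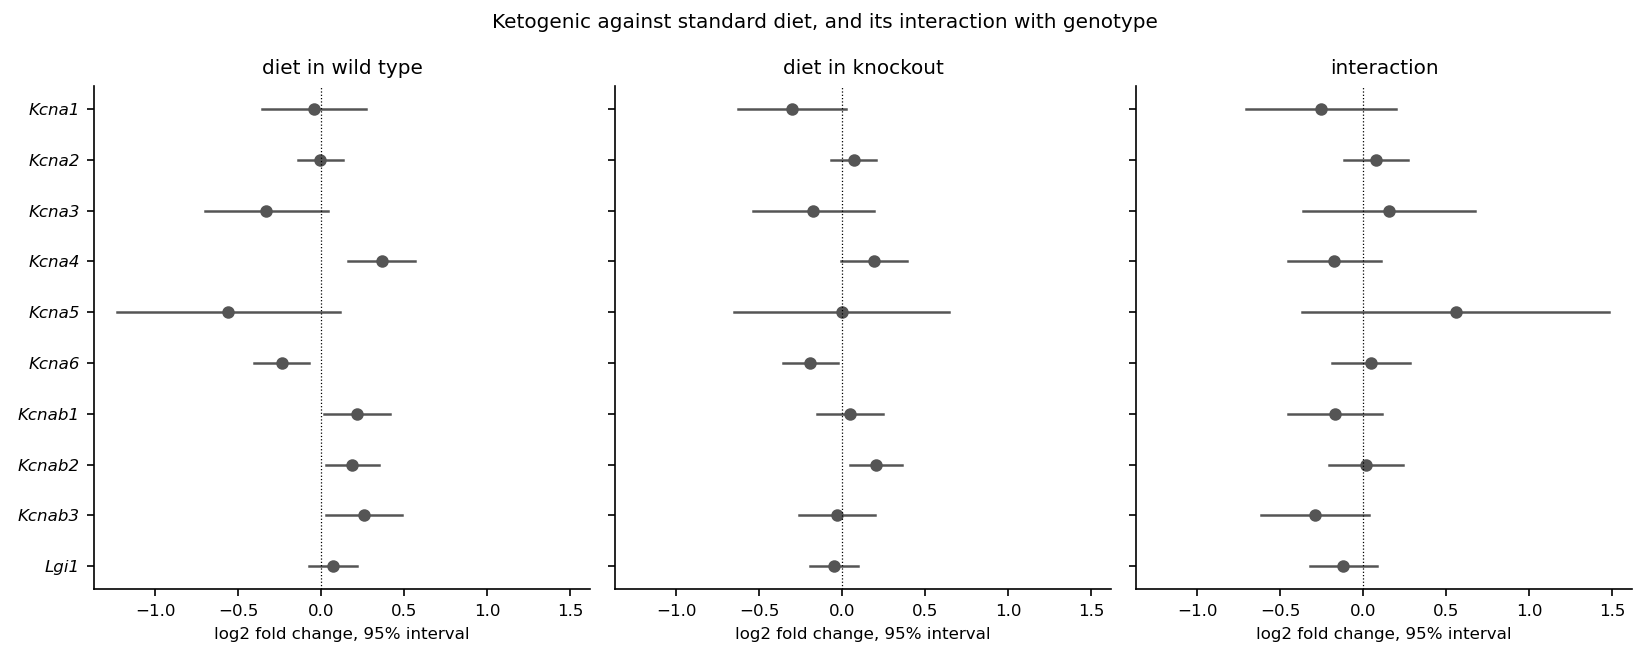
Log2 fold change of the ketogenic against the standard diet for the 10 genes in wild type and in the knockout, and the interaction of genotype and diet, with 95% intervals (x axis, log2). No square is red, and in wild type Kcna4 has the highest value, 0.36, and Kcna5 the lowest, -0.56.

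Partners and relatives of these genes were followed in a list of 16, chosen by function: other Kv1 alpha genes, the Lgi family and its receptors, and proteins that anchor or modify Kv1 channels. Kcna7 had 7 counts in all and Kcna10 had 2, so neither was tested. Of the other 14, none was called in any of the 6 comparisons with all libraries. At an unadjusted p under 0.05, 2 were higher and 5 lower in the knockout on the standard diet, where 14.3% of all tested genes passed, and 1 was lower on the ketogenic diet, where 9.22% did. Over both diets 1 was higher and 4 lower in the knockout at an unadjusted p under 0.05, where 15.8% of all tested genes passed, and the list's median log2 difference was -0.05 against 0.01 over all genes.

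Cntnap2, which encodes Caspr2, the protein that holds Kv1 channels beside the node of Ranvier, had the largest difference of the list over both diets. It averaged 111.4 ± 4.11 CPM over the wild-type libraries, against 91.6 ± 14.1 CPM over the knockout libraries (SD, n = 8 each), a log2 difference of -0.28 ± 0.07 (adjusted p = 0.108). Wild-type libraries ran from 107.0 to 118.3 CPM. The knockout libraries had 85.2, 85.8, 86.3 and 114.8 CPM with the standard diet, KC888LL being the highest, and 76.3, 77.8, 99.5 and 107.7 CPM with the ketogenic diet. All but 2 of the 8 knockout libraries lay below all wild-type libraries. Cntnap2 was called in 3 of 24 alternatives, among them without KC888LL (log2 difference -0.34, adjusted p = 0.00592). Astrocyte markers also differed among the knockout libraries. With the standard diet they summed to 6573.6 CPM in KC872RL, 6267.9 in KC873RR and 4690.2 in KC893RL, the libraries with Cntnap2 at 85.2, 85.8 and 86.3 CPM, and to 4251.2 CPM in KC888LL. With the ketogenic diet they summed to 5677.5 CPM in KC913RR and 5384.5 in KC934R, the libraries with the lowest Cntnap2, and to 4175 CPM in KC916RRL and 4144.0 in KC935LL. Wild-type libraries had 4082.9 to 4615.2 CPM. The part of astrocyte content, or of the neuronal sums given above, in the Cntnap2 values was not tested.

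The synaptic scaffold gene Dlg4 (PSD-95), which clusters Kv1 channels and Adam22, differed by -0.13 ± 0.05 over both diets (adjusted p = 0.240). Dlg2, a related scaffold, differed by -0.21 on the standard diet (adjusted p = 0.202), by 0.02 with the ketogenic one (adjusted p = 0.943) and by -0.10 over both (adjusted p = 0.320). Its interaction of genotype and diet was 0.23 ± 0.09 (adjusted p = 0.654). Epb41l3, which links Caspr2 to the cytoskeleton, differed by -0.17 over both diets (adjusted p = 0.182) and Adam11, a further receptor-like Adam of nerve terminals, by -0.16 (adjusted p = 0.273). Lgi4, a glial relative of Lgi1 in peripheral nerve, differed by 0.25 ± 0.08 (adjusted p = 0.164). Without KC888LL, Cntnap2, Lgi4, Dlg2 and Dlg4 were called on the standard diet, where 5.73% of all tested genes were, and Cntnap2, Lgi4 and Epb41l3 over both diets, where 4.96% were. For diet in the knockout with all libraries, 3 of the 14 genes were higher and 2 lower on the ketogenic diet at an unadjusted p under 0.05. Of all tested genes 16.9% passed there. None of the 14 was called, where 1.16% of all tested genes were. Dlg2 differed by 0.25 ± 0.07 (adjusted p = 0.0671) and Dlg4 by 0.18 ± 0.07 (adjusted p = 0.214). Without KC888LL both were called there, where 6.18% of all tested genes were, at 0.31 for Dlg2 (adjusted p = 0.00979) and 0.26 for Dlg4 (adjusted p = 0.0369). This comparison shares the standard-diet knockout libraries with the genotype comparison in which both were lower. Of those libraries, KC888LL had a hippocampal neuron marker sum of 1074.9 CPM and the others 782.7, 814.5 and 839.4 CPM. These sums were 970.1 to 1077.6 CPM for wild type on that diet and 989.8 to 1213.2 CPM for knockouts on the ketogenic diet. Astrocyte sums of the standard-diet knockouts without KC888LL were 4690.2 to 6573.6 CPM, against 4154.1 to 4615.2 CPM for wild type. The part of these lists in the Dlg2, Dlg4, Lgi4 and Epb41l3 values was not tested.

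Neither Lgi1 receptor was called. Adam22 differed by 0.14 ± 0.07 on the standard diet (adjusted p = 0.333), and by 0.04 on the ketogenic diet (adjusted p = 0.869). Its groups did not overlap on the standard diet, and neither did those of Lgi3 (113.1 CPM in wild-type mice and 134.4 CPM in knockouts), where 5.86% of all tested genes had no overlap. Lgi3 differed by 0.25 there (edgeR adjusted p = 0.582) and went the other way on the ketogenic diet, by -0.23 (adjusted p = 0.724). The ketogenic-diet difference ran from -0.37 to -0.03 over the alternatives tried. Lgi3 was lowest in the knockout library KC913RR, at 51.1 CPM. The other knockouts on that diet had 92.3, 117.0 and 120.9 CPM, against 106.3 to 118.0 CPM in wild type. Over both diets Lgi3 differed by 0.01 (adjusted p = 0.985). Adam23 differed by 0.04 on the standard diet (adjusted p = 0.842) and by -0.08 on the ketogenic diet (adjusted p = 0.750). Cntn2, the partner of Caspr2, differed by -0.04 (adjusted p = 0.895) and -0.20 (adjusted p = 0.585). Over the alternatives tried, ketogenic-diet values ran from -0.31 to -0.07 for Cntn2, -0.14 to -0.01 for Adam23 and -0.01 to 0.10 for Adam22.

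**Figure D4:**
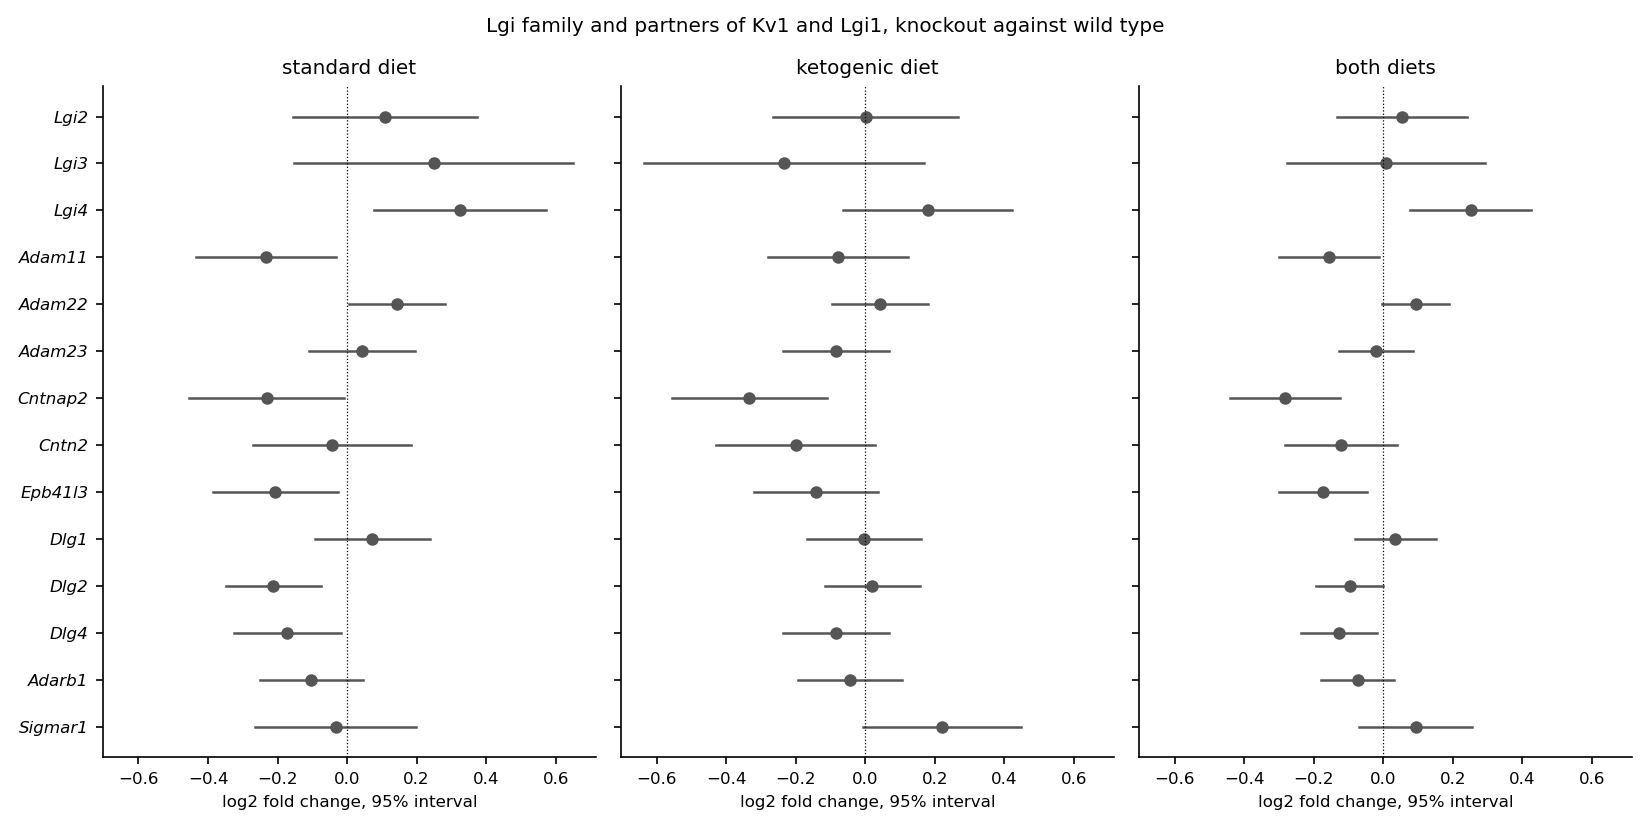
Log2 fold change of knockout against wild type for the 14 tested genes of the related list on each diet and over both, with 95% intervals (x axis, log2). Cntnap2 has the most negative value over both diets, -0.28, and no square is red.

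Finally, genes that varied with Kcna1 and Lgi1 from library to library were sought after removing the group means, over 16 libraries and 11943 genes. The 3 genes most like Kcna1 were Gm13394 (r = 0.880), Zfp974 (r = 0.878) and Mcu (r = 0.876). Without the 2 libraries farthest from their group means in Kcna1 these were 0.375, 0.690 and 0.719, so that the likeness rested in part on these libraries. The 3 most like Lgi1 were Serinc1 (r = 0.945), Ppp3cb (r = 0.910) and Susd4 (r = 0.878). Without the 2 libraries farthest from their group means in Lgi1 they kept 0.909, 0.848 and 0.828. These correlations are descriptions from libraries that share depth and tissue content, and were picked as the highest of many.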

How the data were processed

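The authors deposited 1 table of raw counts per gene for the 16 libraries. Per the submitters' processing notes the build was mm10 and DESeq2 was used, while aligner, counting program and strand setting are not given in the sources used here. Columns were matched to groups by the genotype and diet in their names. Genes with low counts were removed with filterByExpr in edgeR 4.0.16 (R 4.3.3), leaving 17469, and TMM factors, a robust quasi-likelihood fit with 1 coefficient per group (12 residual degrees of freedom) and two-sided F tests followed, with Benjamini-Hochberg adjustment over all tested genes. CPM used effective library sizes, and CPM per kb the GENCODE M21 exon union (GRCm38). Intervals are 95%. The fit was tested on simulated data. The libraries are separate animals by the animal tags of the count columns. Alternatives were DESeq2 1.42.0, limma-voom (limma 3.58.1), other scalings, filters and dispersion settings, Xist as a covariate, only the groups compared, and each library left out in turn. All 10 members are named, and from the related list 5 fixed genes and those at an unadjusted p under 0.05 in a genotype comparison. For likeness, genes of at least 5 CPM were compared. Members and lists were chosen with earlier results of these data known.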

Additional observations from a re-analysis of the deposited data

Results flagged for a closer look

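In 5 of the 40 sets of 4 libraries (10 genes in 4 groups), the highest or lowest library stood off from the rest by more than Dixon's 95% limit, where chance alone flags about 1 set in 20, or 2 of 40. Among knockouts fed the standard diet, KC888LL had the highest Kcna1, 82.0 CPM, and KC872RL the lowest Kcna5, 1.11 CPM. KC894RLL had the highest Kcna1 (129.7 CPM) and the lowest Kcna6 (47.2 CPM) among wild-type mice fed the standard diet. KC916RRL had the highest Kcnab1 among knockouts fed the ketogenic diet, 137.8 CPM.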

How the results depend on the processing

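Under 24 or 25 alternatives per comparison, none of the 9 genes other than Kcna1 was called in 1332 values, where the lowest adjusted p was 0.0598 and 1 was not available. Kcna1 was called on the ketogenic diet in 25 of 25 and over both diets in 24 of 24, and on the standard diet in 9 of 25, among the left-out libraries without KC888LL alone. Counts of called genes moved more. On the standard diet 1 gene was called, against 18 with no filter, 2 with at least 10 counts, 169 with DESeq2, 2 with voom, 2 with Xist, 0 with only the groups compared, and 0 to 1016 with a library left out. On the ketogenic diet it was 3, against 11 with no filter, 45 with DESeq2, 5 with voom, 5 without robust estimation, and 1 to 13 with a library left out. Over both diets 17 were called, against 71 with no filter, 9 with at least 10 counts, 416 with DESeq2, 38 with voom, 45 without robust estimation, and 6 to 880 with a library left out. For diet in wild type it was 2, against 1 with upper-quartile factors, 12 with DESeq2, 0 with voom, 0 without robust estimation, 1 with Xist, 11 with only the groups compared, and 0 to 3 with a library left out. For diet in the knockout 202 were called, against 677 with DESeq2, 7 with Xist, 9 with only the groups compared, and 28 to 1096 with a library left out. The interaction gave 0, against 2 with no filter and 7 with DESeq2. The cause was not tested.

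Among the 10 members, signs turned for differences that were not called. All of these but the interactions of Kcna1 (-0.25) and Kcna3 (0.16) were no larger than that of Kcna5 on the standard diet (0.09). Kcna6 on the standard diet was 0.0111 with upper-quartile factors and 0.0334 with Xist. Diet in wild type gave Kcna2 0.00156 with upper-quartile factors, 0.00233 with no filter and 0.00200 with Xist. Diet in the knockout gave Kcna5 0.000570 with DESeq2 and 0.00864 with voom. The interaction was -0.0555 for Kcna3 and -0.0198 for Kcna6 with Xist, and -0.00758 for Kcnab2 with upper-quartile factors. With a library left out, the log2 difference spanned, on the standard diet, -0.0794 to 0.346 for Kcna5, -0.0495 to 0.0315 for Kcna6 and -0.0929 to 0.0168 for Kcnab1. On the ketogenic diet it spanned -0.0427 to 0.0342 for Kcna2, -0.0206 to 0.136 for Kcna4, -0.0283 to 0.0887 for Kcna6, -0.157 to 0.0126 for Kcnab3 and -0.0998 to 0.0114 for Lgi1. Over both diets it spanned -0.0199 to 0.0413 for Kcna6 and -0.0153 to 0.0377 for Lgi1. For diet it was -0.0403 to 0.0178 for Kcna2 in wild type, and in the knockout -0.137 to 0.122 for Kcna5, -0.0481 to 0.0861 for Kcnab1 and -0.132 to 0.0469 for Kcnab3. For the interaction it was -0.340 to 0.00689 for Kcna1, -0.0196 to 0.290 for Kcna3, -0.0167 to 0.0949 for Kcna6 and -0.0580 to 0.0801 for Kcnab2. Not divided by length, the mean Kcna1 share of the alpha sum was 25.5%, 13.7%, 24.9% and 11.2% (wild type and knockout on the standard, then on the ketogenic diet). No paired analysis was possible because the count columns carry animal tags and no replicate numbers. With 11 to 32 counts, Kcna5 allowed no precise statement.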
